A study of Mus musculus with 6 samples.

Results

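The tumor necrosis factor (TNF) superfamily was examined in lymphatic endothelial cells (LECs) and vascular endothelial cells (VECs) of the mouse small intestine, as 16 ligands and 26 receptors chosen by name. Through the RefSeq accessions of the probes, 41 of these 42 genes were found on the array, with 58 of its 56605 probes, among 22911 named genes in all. No probe was named for Tnfsf13, the B cell ligand APRIL. Both cell populations came from the small intestine of female mice, with Peyer's patches removed and the tissue digested by collagenase before sorting. They shared the lack of CD45, which marks hematopoietic cells, and the presence of CD31. VECs were CD90- and LECs were CD90+. No treatment is named for either group, and strain and age are not given for the array samples in the sources used here. Each group had 3 samples of at most 10000 sorted cells on one-color Agilent arrays, VEC 2, 3 and 4 and LEC 6, 7 and 8. The description field of the LEC samples speaks of VECs, whereas titles and source names give LECs, which was followed here. The sources do not say whether samples within a group were taken from different mice, so the spread behind the p-values may be technical.

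TNF superfamily ligands are mostly trimeric proteins of the cell surface that can be shed, and their receptors cluster upon binding. Some receptors carry a death domain and can start caspase 8-dependent death, while many bind TRAF adaptors and activate NF-kappaB. In blood endothelium, TNF is best known for inducing adhesion molecules and chemokines, and in lymphoid tissue the lymphotoxins act through the lymphotoxin beta receptor to organize stroma and specialized venules.

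The labels were first set against cell type markers. All 7 lymphatic markers were higher in LECs, with a summed scaled intensity of 653 to 731 in VECs and 321882 to 339655 in LECs. The 7 included Thy1, which encodes CD90, so for Thy1 the sorting itself set the direction. All 6 blood endothelial markers were lower in LECs, with sums of 538062 to 588083 in VECs and 12605 to 16860 in LECs. Scaled intensity here is the background-subtracted Cy3 intensity of a probe after each array was set to the same 75th percentile, and it compares samples for 1 probe, never 1 gene with another. Testing with limma was limited to probes that all 3 arrays of 1 group or both showed well above background, and a probe was called at an adjusted p under 0.05. Of the lymphatic markers, Pdpn and Reln passed this filter through the LEC arrays alone, which fixed their direction too. In sorted bulk samples, fewer cells that express a gene and less RNA per cell cannot be told apart.

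Of the 42 genes, 27 were tested, and the family lay mostly on the VEC side. In LECs 6 members were higher, where 34.9% of all 14971 tested genes were, and 17 were lower, where 32.0% of all tested genes were. In shares, 22.2% of the tested members were higher and 63.0% lower. The median log2 difference, LEC minus VEC, was -0.92 over the members and 0.02 over all tested genes. Of the 27, 5 had passed the filter only through the VEC arrays, Tnfsf15, Tnfrsf9, Tnfrsf11b, Tnfrsf18 and Tnfrsf22, so that a lower level in LECs was built into their inclusion. Over the 22 members well above background on all 6 arrays, 6 were higher and 12 lower, with a median of -0.42. Over all 13304 such genes, 35.7% were higher and 30.6% lower, with a median of 0.04. The plot of differences by role sets the 27 members side by side.

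**Figure D1:**
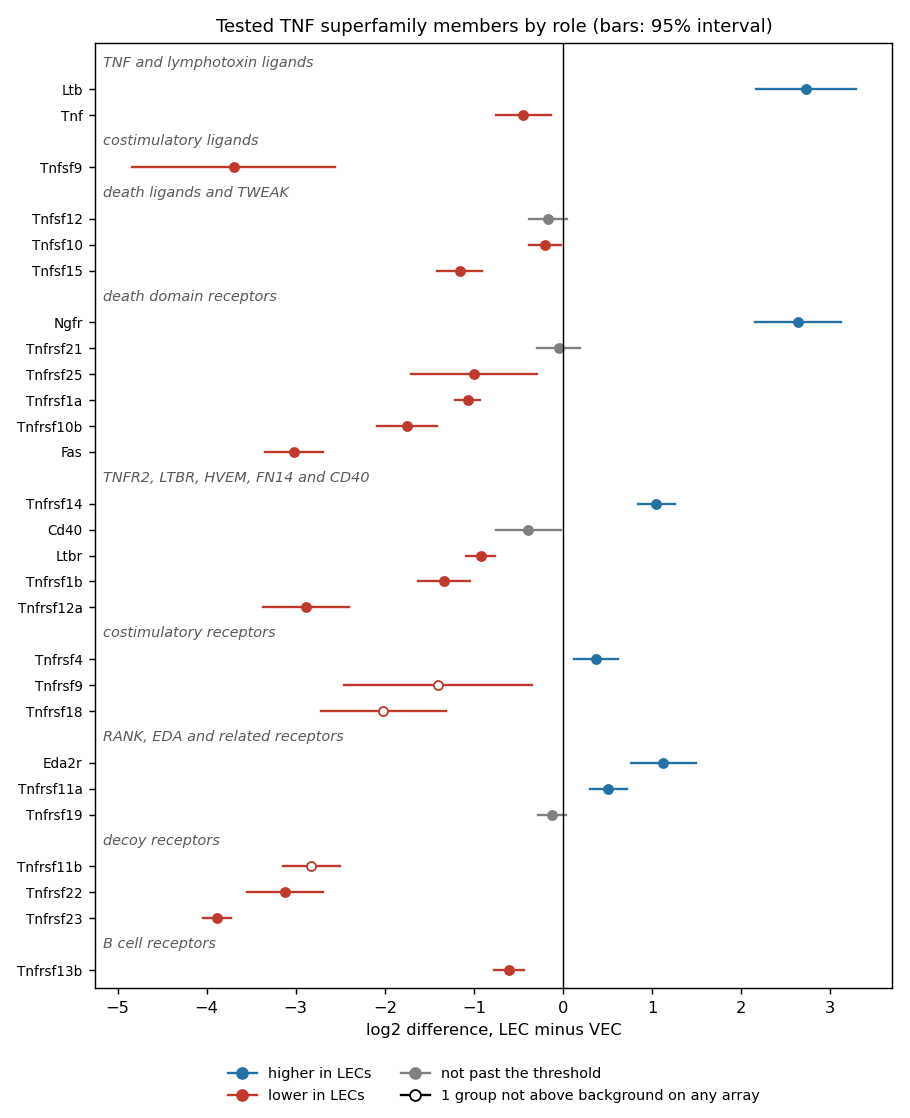
Log2 difference, LEC minus VEC, of the 27 tested TNF superfamily members, grouped by role, each with its 95% confidence interval from limma (n = 3 arrays per group). Blue is higher and red lower in LECs at an adjusted p under 0.05, gray did not pass, and open circles mark genes of which LECs had no array above background. Ltb and Ngfr lie farthest to the right, and Tnfrsf23 and Tnfsf9 farthest to the left.

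The promoters of the members past 4-fold in either direction on probes well above background on all arrays are shown next, as far as RefSeq gave an entry, together with that of Tnf, which adjoins Ltb with no protein-coding gene between them. Each line gives the 250 bases before the RefSeq transcription start, 5′ to 3′ on the strand of the gene, in the GRCm38.p6 build. Capitals mark matches, on either strand, to the kappa B consensus of NF-kappaB, the GC box GGGCGG, the AP-1 site TGANTCA or the TATA box TATAAA.
Ltb, chr17:35194257-35194506, plus strand: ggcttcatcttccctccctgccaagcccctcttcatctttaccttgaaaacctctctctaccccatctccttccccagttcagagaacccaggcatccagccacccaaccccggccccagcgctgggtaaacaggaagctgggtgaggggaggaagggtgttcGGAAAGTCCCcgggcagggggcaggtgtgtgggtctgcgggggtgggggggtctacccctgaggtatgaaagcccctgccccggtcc
Tnf, chr17:35202008-35202257, minus strand: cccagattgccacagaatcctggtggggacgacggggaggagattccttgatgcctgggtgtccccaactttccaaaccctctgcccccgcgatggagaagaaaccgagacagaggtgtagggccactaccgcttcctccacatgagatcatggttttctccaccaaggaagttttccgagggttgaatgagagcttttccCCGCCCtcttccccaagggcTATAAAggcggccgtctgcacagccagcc
Ngfr, chr11:95587699-95587948, minus strand: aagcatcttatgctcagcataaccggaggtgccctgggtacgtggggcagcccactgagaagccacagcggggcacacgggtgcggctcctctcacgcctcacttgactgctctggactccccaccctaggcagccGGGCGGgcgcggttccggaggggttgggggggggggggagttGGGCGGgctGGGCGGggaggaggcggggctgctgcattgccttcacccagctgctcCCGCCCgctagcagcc
Fas, chr19:34290409-34290658, plus strand: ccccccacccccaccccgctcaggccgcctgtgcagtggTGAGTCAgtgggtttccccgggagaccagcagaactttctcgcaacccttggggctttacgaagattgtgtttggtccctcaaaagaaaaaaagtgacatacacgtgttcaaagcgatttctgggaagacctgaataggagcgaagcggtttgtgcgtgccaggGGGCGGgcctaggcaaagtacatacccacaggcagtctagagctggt
Tnfrsf12a, chr17:23677450-23677699, minus strand: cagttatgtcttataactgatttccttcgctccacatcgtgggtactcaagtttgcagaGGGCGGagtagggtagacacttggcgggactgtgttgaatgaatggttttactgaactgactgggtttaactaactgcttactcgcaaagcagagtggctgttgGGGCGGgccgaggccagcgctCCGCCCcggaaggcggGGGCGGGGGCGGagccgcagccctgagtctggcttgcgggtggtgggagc
Tnfrsf23, chr7:143685876-143686125, minus strand: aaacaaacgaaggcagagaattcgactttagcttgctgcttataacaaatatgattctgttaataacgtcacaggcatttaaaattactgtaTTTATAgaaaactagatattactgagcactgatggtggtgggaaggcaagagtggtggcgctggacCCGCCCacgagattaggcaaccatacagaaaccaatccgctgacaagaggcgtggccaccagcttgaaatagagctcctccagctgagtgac

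The Ltb window held 1 kappa B match, 87 bases before the start, and none of the other motifs. The Tnf window held a TATA box 29 bases and a GC box 49 bases before the start. GC boxes stood 4 times in the window of Ngfr and 5 times in that of Tnfrsf12a, neither with a match to the other motifs. The Fas window held an AP-1 match 211 bases and a GC box 47 bases before the start, and that of Tnfrsf23 a TATA box 158 bases and a GC box 92 bases before it. RefSeq gave 38 windows for 34 members, and no base of theirs belonged to matches of 2 different motifs. The kappa B consensus was found in 3 of the 38 (7.89%), those of Ltb and Tnfrsf8 and 1 of the windows of Tnfrsf9, against 3.9% of 32851 windows of all genes. GC boxes stood in 44.7% of member windows against 32.7% of all, AP-1 matches in 15.8% against 6.75%, and TATA boxes in 18.4% against 12.4%. Matches are described here as letters only.

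Of the 6 tested ligands, Ltb was the 1 that rose in LECs, and Tnf, beside it on chromosome 17, did not rise with it. Ltb encodes lymphotoxin beta, the membrane anchor of the lymphotoxin heterotrimer that binds the lymphotoxin beta receptor. Its scaled intensities were 213, 235 and 140 on VEC arrays 2, 3 and 4 and 1546, 1094 and 1205 on LEC arrays 6, 7 and 8. The lowest LEC array lay far above the highest VEC array. The log2 difference was 2.73 ± 0.23 (SE), or 6.64-fold (95% interval 4.49 to 9.81, limma adjusted p = 0.000143), and it ranged from 2.36 to 3.02 over 19 alternative settings, past the threshold in each.

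Ltb is also known as a lymphocyte gene, so lymphoid markers stand beside it. Over all tested genes 34.9% rose and 32.0% fell in LECs, and each marker count here is to be read beside those shares. Of 8 T cell markers, 3 rose and 3 fell in LECs, and Cd3g and Cd8a were well above background on none of the arrays. The T cell sum was 2318 to 2940 in VECs and 4785 to 5415 in LECs. The members moved unequally, and they are named here after their values were seen. Cd2 was 58.8-fold higher, at 36.3, 29.8 and 27.7 in VECs and 2119, 1649 and 1742 in LECs, Lck 2.90-fold and Cd3d 2.23-fold higher, whereas Cd3e, Cd4 and Cd28 were 1.54-fold, 1.26-fold and 1.57-fold lower. Of 6 innate lymphoid and NK markers, 1 rose and none fell, Ncr1 and Klrk1 were not well above background anywhere, and the sum was 71.0 to 137 in VECs and 113 to 178 in LECs. Of 6 B and plasma cell markers none rose and 2 fell, with Ms4a1 and Mzb1 well above background on none of the arrays and sums of 118 to 299.6 in VECs and 120.2 to 202 in LECs. Of 3 pan-leukocyte markers 2 rose, with sums of 62.7 to 94.1 in VECs and 132 to 177 in LECs. The part of such cells in the Ltb difference was not tested.

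Tnf, the founding inflammatory cytokine, had scaled intensities of 219, 222 and 177 in VECs and 170, 141 and 143 in LECs. The groups were close, with the highest LEC array just below the lowest VEC array. The log2 difference was -0.44 ± 0.13 (SE; limma adjusted p = 0.0222), but a second Tnf probe gave -0.42 ± 0.29 with overlapping groups and an adjusted p of 0.241. Over the alternatives the adjusted p ran from 0.00889 to 0.24, and the call was lost in 9 of 19, among them without VEC 2 (0.0728), VEC 3 (0.0746), LEC 7 (0.0694) or LEC 8 (0.0707). Lta, the soluble lymphotoxin on the other side of Tnf, was not tested. Its probe was well above background on 2 VEC arrays and 1 LEC array, at 13.5, 22.3 and 11.2 in VECs and 10.3, 13.3 and 75.8 in LECs, so that LEC 8 alone stood out. Tnfsf14, or LIGHT, a further ligand of the lymphotoxin beta receptor, was well above background on none of the arrays.

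Of the costimulatory ligands, Tnfsf9 was tested and fell in LECs. Tnfsf9 encodes 4-1BB ligand, which costimulates T cells through 4-1BB. It measured 1531, 1411 and 964 in VECs and 80.2, 201 and 59.1 in LECs, without overlap and with LEC 7 the highest of its group. This gave a log2 difference of -3.70 ± 0.47 (SE), 13.0-fold lower (limma adjusted p = 0.000813). Cd70, its neighbor on chromosome 17, and Tnfsf4 (OX40 ligand) were well above background on none of the arrays. Tnfsf8 (CD30 ligand) was well above background on 2 LEC arrays and no VEC array, with 22.2, 9.8 and 20.5 in LECs and at most 3.39 in VECs. Tnfsf18 (GITR ligand) was above background on VEC 3 alone, at 23.9.

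Of the death ligands, Tnfsf15 fell and the other 2 tested ones moved little. Tnfsf15, or TL1A, an endothelial ligand of DR3, measured 60.2, 58.7 and 62.1 in VECs and 31.3, 24.9 and 25.3 in LECs, where 2 of 3 arrays were well above background. Its log2 difference was -1.16 ± 0.10 (SE; 2.23-fold lower, limma adjusted p = 0.000187). Its other probe, well above background on no LEC array, gave -1.11. Both probes were tested through the VEC arrays alone, which fixed their direction. Tnfsf10, or TRAIL, measured 4991, 4778 and 5381 in VECs and 4184, 4530 and 4427 in LECs. Its log2 difference of -0.20 ± 0.07 (SE) sat at the threshold, with a limma adjusted p of 0.0499, and it passed in 3 of 19 alternatives, with adjusted p from 0.018 to 0.89. Tnfsf12, or TWEAK, passed in 1 alternative (without VEC 4) and did not pass here, at 672, 690 and 589 in VECs against 613, 546 and 575 in LECs (log2 difference -0.17, 95% interval -0.38 to 0.05, adjusted p = 0.144). Fasl, the ligand of Fas, was well above background on none of the arrays, and neither were Tnfsf11 (RANK ligand) and Tnfsf13b (BAFF). In all, 1 of the 6 tested ligands rose (16.7%) and 4 fell (66.7%), against 34.9% and 32.0% of all tested genes. Of the 4, Tnfsf15 was tested through the VEC arrays alone. The count past the threshold dropped from 5 to 3 without VEC 2, without VEC 3 or without LEC 8. The plot of ligand levels shows how close the groups were for Tnf and Tnfsf10.

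**Figure D2:**
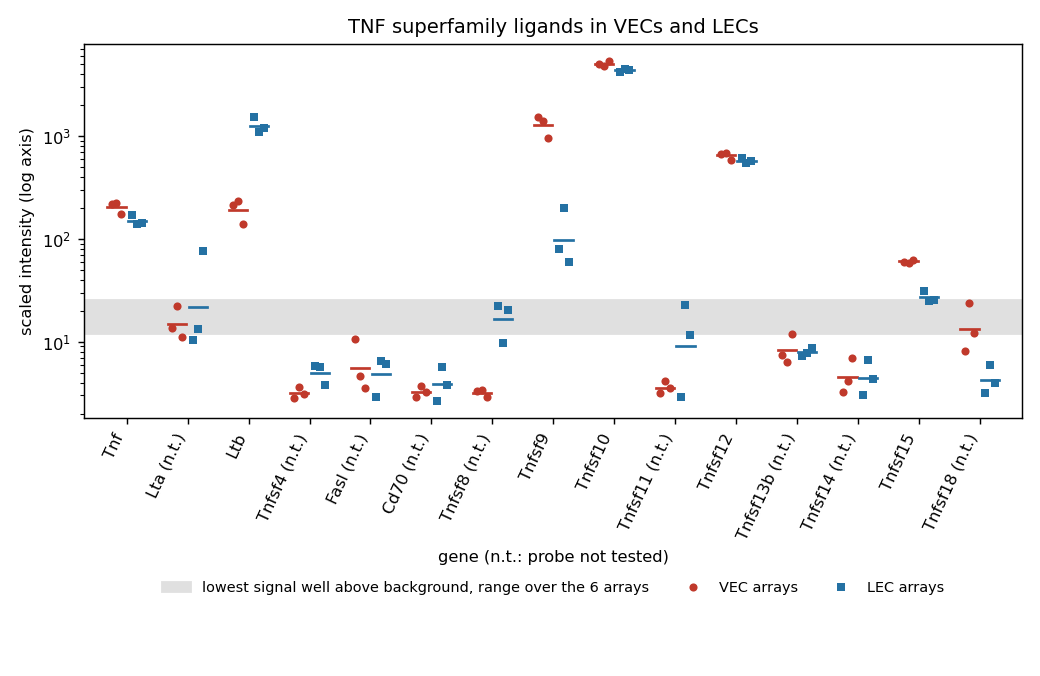
Scaled intensity (log axis) of the 15 ligands with a probe, 1 point per array (red circles VEC 2, 3 and 4 and blue squares LEC 6, 7 and 8, left to right), with lines at the geometric means. The gray band marks where the signals well above background began on the 6 arrays, 11.8 to 25.4, and n.t. marks genes not tested. Among the tested ligands, Ltb is the one with all LEC points high above the VEC points, Tnfsf9 the reverse. The untested Tnfsf8 also has its LEC points well above its VEC points, all within or below the gray band.

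Of the 6 receptors with a death domain, 4 fell in LECs, 1 rose and 1 did not pass. Over all tested genes 32.0% were lower and 34.9% higher. Fas, which triggers apoptosis upon binding Fas ligand, measured 5525, 5641 and 7277 in VECs and 677, 819 and 765 in LECs. The groups were separated by a wide gap. Its log2 difference was -3.02 ± 0.13 (SE), 8.12-fold lower (limma adjusted p = 1.01e-05), and the other Fas probe gave -3.86. Tnfrsf10b, the single mouse TRAIL receptor with a death domain, measured 6110, 6339 and 4562 in VECs and 1619, 1645 and 1735 in LECs, 3.37-fold lower (log2 difference -1.75 ± 0.14 SE, adjusted p = 0.000102). Its other probe gave -2.09, again lower on all LEC arrays.

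Tnfrsf1a, the widely expressed TNF receptor 1, was lower by less, at 16171, 16496 and 16707 in VECs and 7684, 8079 and 7752 in LECs. Arrays of a group lay within a narrow band and the groups did not overlap. This made a log2 difference of -1.07 ± 0.06 (SE; 2.10-fold, limma adjusted p = 2.25e-05), with -1.15 on the other probe. Tnfrsf25, or DR3, the receptor of TL1A, measured 1596, 1630 and 2493 in VECs and 662, 1283 and 957 in LECs. Both groups were spread, and the difference of -0.999 ± 0.29 (adjusted p = 0.0236) was lost without VEC 4 (-0.79, adjusted p = 0.0642), without LEC 6 (-0.75, 0.0526) or without LEC 8 (-1.02, 0.0582), with adjusted p from 0.00828 to 0.0704 over the alternatives. Tnfrsf21, or DR6, overlapped between the groups at 82.6, 87.4 and 72.4 in VECs and 76.8, 73.1 and 83.9 in LECs (log2 difference -0.05, 95% interval -0.29 to 0.19, adjusted p = 0.682).

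Ngfr was the death domain receptor that rose. It encodes p75, the low-affinity receptor of the neurotrophins. It measured 37.5, 29.7 and 28.2 in VECs and 196, 248 and 157 in LECs, above background on all 6 arrays and with no overlap. This was a log2 difference of 2.64 ± 0.20 (SE), 6.24-fold higher (95% interval 4.47 to 8.7, limma adjusted p = 8.25e-05). Ngfr is also expressed by some fibroblasts and by glia. Of 6 fibroblast markers 2 rose and none fell in LECs, where 34.9% of all tested genes rose and 32.0% fell. All 6 were above background on at least 1 array, and their sum was 342 to 543 in VECs and 741 to 1016 in LECs. The part of such cells in the Ngfr difference was not tested.

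TNF receptor 2, the lymphotoxin beta receptor, HVEM, FN14 and CD40 signal through TRAF adaptors without a death domain, and 3 of these 5 fell in LECs while 1 rose. Among all tested genes 32.0% fell and 34.9% rose. Tnfrsf12a, or FN14, the receptor of TWEAK and a growth factor-inducible gene, measured 5195, 5629 and 3372 in VECs and 645, 623 and 610 in LECs. VEC 4 was the lowest of its group and still over the LEC arrays by a wide margin. The log2 difference was -2.88 ± 0.20 (SE), 7.38-fold lower (limma adjusted p = 5.82e-05). Its ligand Tnfsf12, given above, overlapped between the groups.

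Tnfrsf1b, or TNF receptor 2, measured 573, 600 and 654 in VECs and 273, 207 and 246 in LECs, without overlap (log2 difference -1.34 ± 0.12 SE, 2.53-fold lower, adjusted p = 0.000181). Ltbr, the lymphotoxin beta receptor, measured 8271, 8875 and 8133 in VECs and 4325, 4431 and 4564 in LECs, again without overlap. It was 1.90-fold lower (log2 difference -0.92 ± 0.07 SE, adjusted p = 6.79e-05), so the receptor and its ligand subunit Ltb differed in opposite directions. Ltbr and Tnfrsf1a, with 1 protein-coding gene between them on chromosome 6, Scnn1a, were both lower.

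Tnfrsf14, or HVEM, depended on the probe. On the probe with the higher mean it measured 56.1, 53.5 and 60.4 in VECs and 109, 117 and 126 in LECs (log2 difference 1.05 ± 0.08 SE, limma adjusted p = 0.000115). The other probe measured 56.0, 66.3 and 49.9 in VECs and 54.9, 54.0 and 55.3 in LECs, with overlap and a difference of -0.06 (95% interval -0.33 to 0.22, adjusted p = 0.676). The probe that stands for the gene was chosen by its mean over all 6 arrays, so its LEC signal entered the choice. Cd40, the costimulatory receptor of antigen-presenting cells, measured 230, 233 and 166 in VECs and 162, 147 and 167 in LECs. The groups met at VEC 4, and the difference of -0.39 (95% interval -0.75 to -0.03) had an adjusted p of 0.0597. Without VEC 4 it was -0.55 with an adjusted p of 0.00357, and over the alternatives the adjusted p ran from 0.00357 to 0.411.

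**Figure D3:**
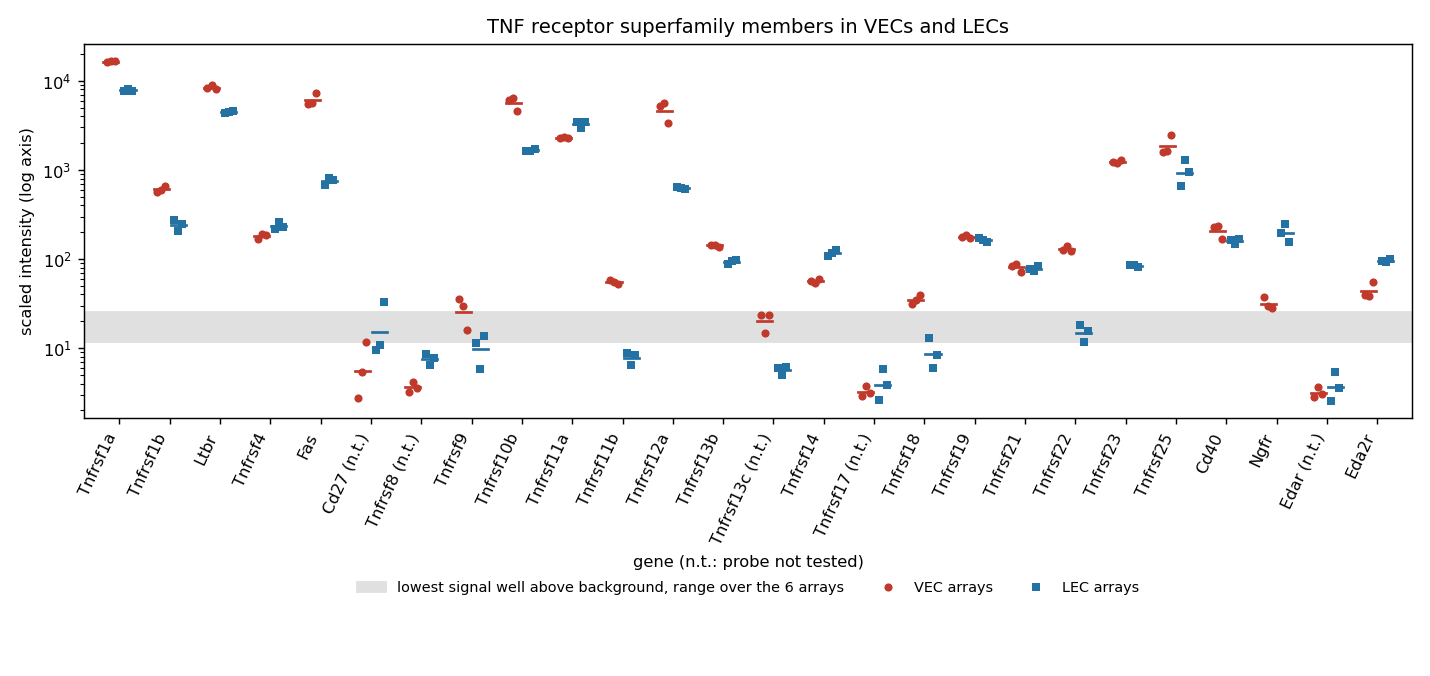
Scaled intensity (log axis) of the 26 receptors, 1 point per array (red circles VEC 2, 3 and 4 and blue squares LEC 6, 7 and 8, left to right), with lines at the geometric means and the tested probe of highest mean where a gene had several. The gray band marks where the signals well above background began on the 6 arrays, 11.8 to 25.4, and n.t. marks genes not tested. Fas, Tnfrsf12a, Tnfrsf22 and Tnfrsf23 have all VEC points high above the LEC points, and Ngfr the reverse.

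The decoy receptors bind ligand without passing on a death signal, and 3 were measured here. Tnfrsf23 passed the filter through both groups, whereas Tnfrsf22 and Tnfrsf11b passed through the VEC arrays alone and could hardly come out other than lower in LECs. Tnfrsf23, a mouse decoy receptor of TRAIL, measured 1240, 1188 and 1299 in VECs and 84.9, 85.6 and 82.0 in LECs. Arrays of a group nearly coincided. Its log2 difference was -3.88 ± 0.06 (SE), 14.8-fold lower (limma adjusted p = 5.07e-07), and the remaining 2 Tnfrsf23 probes, not well above background in LECs, gave at least 1.41-fold and at least 1.26-fold lower.

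Tnfrsf22, the companion decoy receptor next to Tnfrsf23 on chromosome 7, measured 125, 140 and 122 in VECs and 18.4, 11.6 and 15.4 in LECs, where 1 of 3 arrays was well above background. It was 8.67-fold lower (log2 difference -3.12 ± 0.17 SE, adjusted p = 2.55e-05), or at least 6.47-fold with the dim arrays set at their lowest signal above background. Tnfrsf26, the orphan receptor on the other side of Tnfrsf22 and outside the list of 42, measured 172, 182 and 211 in VECs and no more than 6.8 in LECs, where no array was well above background. It was at least 10.96-fold lower (limma adjusted p = 7.8e-07). It too was tested through the VEC arrays alone, so that the filter fixed the direction of both genes beside Tnfrsf23. Tnfrsf11b encodes osteoprotegerin, the secreted decoy of RANK ligand, and measured 57.6, 55.7 and 52.0 in VECs. In LECs it was well above background on none of the arrays, which made it at least 3.21-fold lower (limma adjusted p = 1.2e-05). Where a group has no array above background, the bound divides the mean of the bright group by the lowest signal each dim array had well above background, or the dim probe itself where that is higher. Such a bound compares group means and carries no sampling error. An adjusted p printed beside a bound is from the limma fit without that limit, which took in signals below background.

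Of the 3 tested costimulatory receptors, Tnfrsf4 passed the filter through both groups and rose slightly, while Tnfrsf18 and Tnfrsf9 passed through the VEC arrays alone, which fixed their direction. Tnfrsf18 (GITR) measured 31.3, 34.4 and 39.7 in VECs and was not well above background in LECs, at least 1.97-fold lower (limma adjusted p = 0.00136). Its neighbor on chromosome 4, Tnfrsf4 (OX40), differed the other way, at 167, 193 and 188 in VECs and 218, 263 and 228 in LECs. All LEC arrays were above all VEC arrays, but by little. The log2 difference was 0.37 ± 0.10 (SE; adjusted p = 0.0191), and the call was lost without VEC 2 (0.31, adjusted p = 0.0639) and in 2 further alternatives, with adjusted p from 0.00242 to 0.178.

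Tnfrsf9, or 4-1BB, the receptor of Tnfsf9, was dim at 35.8, 29.8 and 15.8 in VECs and not well above background in LECs. By group means it was at least 1.495-fold lower. The limma log2 difference was -1.41 (95% interval -2.46 to -0.35, adjusted p = 0.0292). Its call was lost in 9 of 18 alternatives, among them without VEC 2 (adjusted p = 0.0858), VEC 3 (0.0851), LEC 6 (0.0541) or LEC 7 (0.0659), with adjusted p from 0.00801 to 0.24. Cd27, the receptor of Cd70, was well above background on LEC 8 alone, at 33.0, and Tnfrsf8 (CD30) on no array.

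Of the 3 tested receptors around RANK and ectodysplasin, 2 rose in LECs, where 34.9% of all tested genes rose. Tnfrsf11a, or RANK, known from osteoclasts and lymph node development, measured 2274, 2361 and 2294 in VECs and 3493, 2961 and 3447 in LECs. It was higher on every LEC array, with a log2 difference of 0.51 ± 0.08 (SE; 1.43-fold, limma adjusted p = 0.00245), and 0.93 on its other probe. Its ligand Tnfsf11 was not well above background, whereas its decoy Tnfrsf11b was lower in LECs, as given above. Eda2r, a receptor of the ectodysplasin isoform EDA-A2, measured 39.1, 38.6 and 54.8 in VECs and 93.9, 91.5 and 100.5 in LECs, with a log2 difference of 1.13 ± 0.15 (SE; adjusted p = 0.000992). Another Eda2r probe overlapped between the groups (0.73, 95% interval -0.16 to 1.63, adjusted p = 0.127).

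Tnfrsf19, or TROY, depended on the probe as Tnfrsf14 did. The brighter probe gave 176, 185 and 173 in VECs and 171, 163 and 157 in LECs (log2 difference -0.12, 95% interval -0.28 to 0.04, adjusted p = 0.15). The dimmer one gave 25.2, 17.4 and 18.9 in VECs and 40.5, 38.1 and 44.9 in LECs, higher by 1.02 ± 0.15 (SE; adjusted p = 0.00167). Edar, the ectodysplasin receptor, was well above background on none of the arrays. Its ligand Eda and its adaptor Edaradd, both outside the list of 42, were higher in LECs. Eda measured 1180, 1025 and 1174 in LECs and was not well above background in VECs, at least 77.8-fold higher (limma adjusted p = 6.92e-07). Edaradd measured 145, 145 and 154 in LECs and was not well above background in VECs, at least 10.2-fold higher (adjusted p = 0.000192). Both Eda and Edaradd were tested through the LEC arrays alone, which fixed their direction.

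Of the receptors of BAFF and APRIL, Tnfrsf13b (TACI) was tested and measured 144, 146 and 138 in VECs and 88.1, 95.7 and 97.3 in LECs, 1.52-fold lower (log2 difference -0.61 ± 0.07 SE, adjusted p = 0.000488). Tnfrsf13c (BAFF receptor) was well above background on 2 VEC arrays, at 23.7 and 23.3, and no LEC array, and Tnfrsf17 (BCMA) on none. The tested TACI probe was well above background on every array and the other TACI probe on none.

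Probes of 1 gene were compared where several had been tested, which was the case for 10 members. In 6 of them all tested probes had the same call, and in 4 the calls differed, those of Tnf, Tnfrsf14, Tnfrsf19 and Eda2r. For 2 of the 6 the filter had a part in this. Both Tnfsf15 probes and the dimmer Tnfrsf23 probes were tested through the VEC arrays alone, which fixed their direction. In 2 of the 4, Tnfrsf14 and Tnfrsf19, the probes differed in sign as well. Which transcripts each probe reads was not examined.

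**Figure D4:**
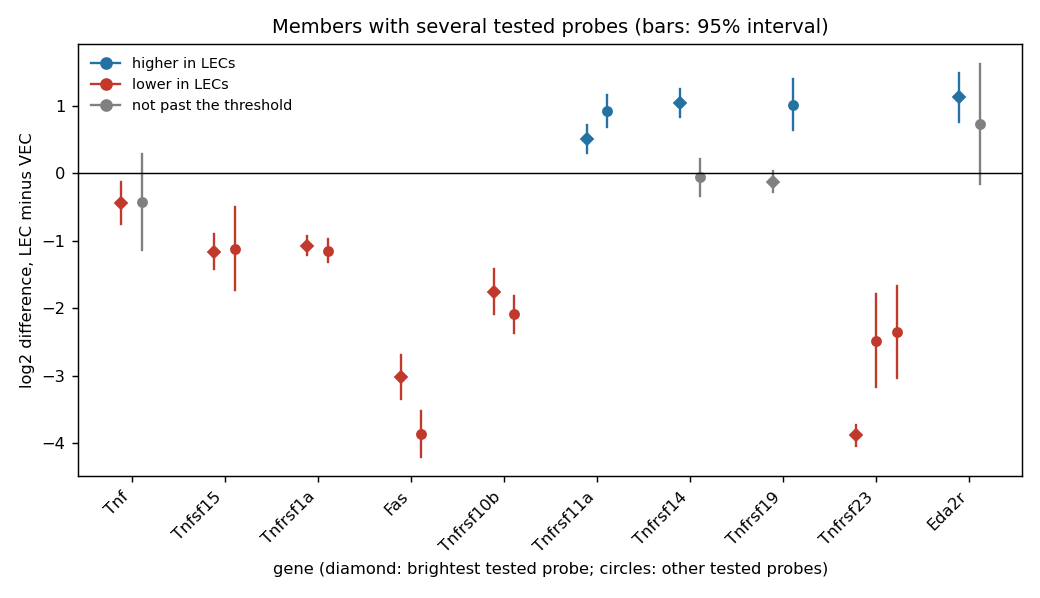
Log2 difference, LEC minus VEC, of every tested probe of the 10 members with several tested probes, with 95% confidence intervals from limma (n = 3 arrays per group). Diamonds are the probes with the highest mean, circles the other probes, and colors give the call (blue higher in LECs, red lower, gray not past the threshold). Both Fas probes and all 3 Tnfrsf23 probes lie below 0, while the probes of Tnfrsf14 and Tnfrsf19 straddle 0. The Tnfrsf23 circles and both Tnfsf15 probes were tested through the VEC arrays alone, which fixed their side.

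Downstream of the receptors, 39 signaling genes were all tested, and 21 were lower (53.8%) and 7 higher (17.9%) in LECs, against 32.0% and 34.9% of all tested genes, with a median log2 difference of -0.37. Of the 6 TRAF adaptors 5 fell, led by Traf4, which measured 815, 814 and 655 in VECs and 188, 194 and 197 in LECs (3.93-fold lower, limma adjusted p = 1.91e-05). Of the 8 death domain adaptors and genes of caspase 8-dependent and necroptotic death 5 fell. Casp8, the initiator caspase of death receptors, measured 1618, 1620 and 1847 in VECs and 491, 453 and 481 in LECs (3.56-fold lower, adjusted p = 9.42e-06). Edaradd, described above and tested through the LEC arrays alone, was the member of that group that rose.

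Of the 9 NF-kappaB subunits and inhibitors, 7 fell and 1 rose, where 32.0% and 34.9% of all tested genes did. Rel, encoding c-Rel, measured 195, 197 and 158 in VECs and 38.9, 38.7 and 44.6 in LECs (4.49-fold lower, limma adjusted p = 2.03e-05). Nfkbie, encoding an inhibitor of NF-kappaB, was the one that rose, at 670, 703 and 651 in VECs and 1358, 954 and 1189 in LECs (1.71-fold, adjusted p = 0.00323). Of the 9 ubiquitin ligases, deubiquitinases and partners 3 fell and 3 rose, and the 2 best known brakes among them differed in opposite directions. Tnfaip3, encoding A20, measured 15719, 16226 and 12803 in VECs and 2395, 2019 and 2302 in LECs (6.65-fold lower, adjusted p = 9.41e-06). Cyld, encoding a deubiquitinase that likewise restrains NF-kappaB, measured 356, 322 and 336 in VECs and 827, 801 and 878 in LECs (2.47-fold higher, adjusted p = 2.3e-05), while its other 2 probes were higher by less, 1.25-fold and 1.75-fold. Rbck1, encoding HOIL-1 of the linear ubiquitin ligase complex, was 1.46-fold higher (adjusted p = 0.000397). Of the 7 kinases and partners, 1 fell and 2 rose. Some of these counts depended on the probe. Sharpin and Map3k7 counted as higher but had other probes that did not pass. Map3k14, Chuk and Ikbkg did not pass, though each had another probe called higher, and Tab2 had another called lower.

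Without scaling between arrays, which shifted all probes toward LECs by 0.23 on the log2 scale at the median, 16 signaling genes were lower and 9 higher. That setting gave 12922 probes higher and 6916 lower over the whole array, in place of 10537 and 11066. In that setting 5 receptors were higher and 13 lower, the counts found with scaling, and 1 ligand was higher and 2 lower.

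Of the 6 genes for ligand shedding and cleavage all passed the test, 2 higher (33.3%) and 4 lower (66.7%) in LECs. The shares over all tested genes were 34.9% and 32.0%. Rhbdf2, encoding iRhom2, a partner of the TNF-shedding protease ADAM17, measured 2299, 2276 and 1834 in VECs and 320, 374 and 343 in LECs (6.16-fold lower, limma adjusted p = 9.62e-06). Rhbdf1 (iRhom1) was 1.66-fold lower (adjusted p = 0.000629), the proprotein convertase Furin 1.48-fold lower (0.00241) and Adam17 itself 1.20-fold lower (0.0211). Adam17 was lost without VEC 2, VEC 3 or LEC 7, with adjusted p of 0.0526, 0.0743 and 0.0626 and a range from 0.00703 to 0.83 over the alternatives. Timp3, encoding an inhibitor of ADAM17, was 2.12-fold higher (adjusted p = 7.52e-05) and Adam10 1.66-fold higher (0.000347). Relt, a receptor-like member outside the list of 42, was 1.21-fold lower (adjusted p = 0.0299), a call lost without VEC 2 (0.0922), VEC 4 (0.0753), LEC 6 (0.0818) or LEC 8 (0.0955), with adjusted p from 0.00276 to 0.767.

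Of 21 genes that TNF is known to induce in blood endothelium, 18 were tested, with 12 lower (66.7%) and 2 higher (11.1%) in LECs, against 32.0% and 34.9% of all tested genes, and a median log2 difference of -1.64. All 5 adhesion molecules fell. Sele, encoding E-selectin, measured 1512, 1529 and 1954 in VECs and 73.8, 61.4 and 46.8 in LECs (27.7-fold lower, limma adjusted p = 6.73e-06). Madcam1, encoding the gut homing addressin, was 24.1-fold lower (adjusted p = 7.12e-06) and Selp, encoding P-selectin, 21.8-fold lower (9.86e-07). Il6, encoding interleukin 6, measured 9281, 9236 and 8007 in VECs and 847, 617 and 569 in LECs (13.2-fold lower, adjusted p = 9.42e-06). The 2 genes that rose were chemokines. Ccl2 measured 72.2, 35.4 and 146 in VECs and 3061, 2816 and 2700 in LECs (39.7-fold higher, adjusted p = 0.000205). Ccl7 was 11.6-fold higher (adjusted p = 0.0117), with 2 of 3 VEC arrays above background, or at least 7.39-fold with VEC signals held at that limit. Ccl7 was thus tested through the LEC arrays alone. Its log2 difference of 3.54 became 2.52 without VEC 3 (adjusted p = 0.000619) and 4.15 without VEC 4 (0.011), and it did not pass with the slide row as a block (0.0765). Many of these genes are blood endothelial genes also without TNF, and the TNF protein was not measured here.

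**Figure D5:**
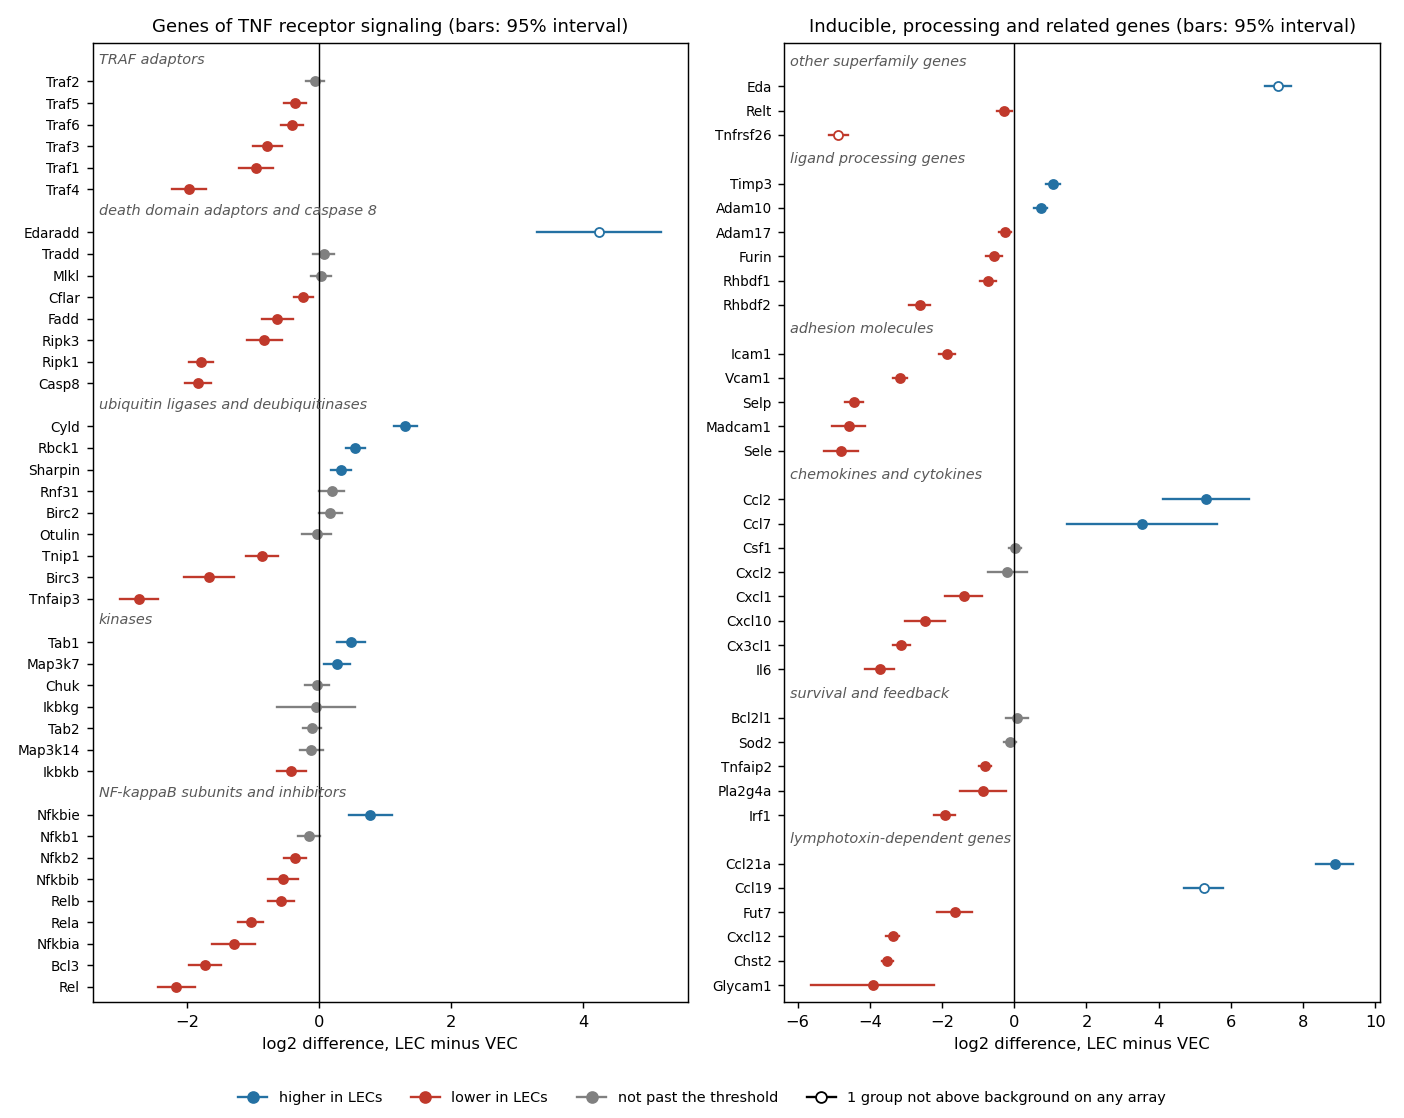
Log2 difference, LEC minus VEC, with 95% confidence intervals from limma (n = 3 arrays per group) of the 39 signaling genes on the left and of other superfamily, ligand processing, TNF-inducible and lymphotoxin-dependent genes on the right, by group. Colors give the call as in the plot of the members, and open circles mark genes not above background on any array of 1 group. All 5 adhesion molecules and 5 of 6 TRAF adaptors lie on the lower side, while Eda, Edaradd, Ccl21a, Ccl19 and Ccl2 lie far to the right.

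Of 8 genes known to depend on lymphotoxin signaling in lymphoid stroma and venules, 6 were tested. In LECs 2 were higher (33.3%) and 4 lower (66.7%), against 34.9% and 32.0% of all tested genes. Ccl21a, encoding the chemokine of lymphatic vessels that attracts CCR7-bearing cells, measured 503, 390 and 695 in VECs and 240153, 252024 and 232993 in LECs (469-fold higher, limma adjusted p = 9.75e-07). Ccl19, encoding the other CCR7 ligand, was not well above background in VECs and at least 15.5-fold higher in LECs (adjusted p = 7.83e-06). It was tested through the LEC arrays alone, which fixed its direction. The 4 that fell were Cxcl12 (10.3-fold, adjusted p = 8.43e-07), the sulfotransferase gene Chst2 (11.4-fold, 5.6e-07), the fucosyltransferase gene Fut7 (3.14-fold, 0.000629) and Glycam1 (15.1-fold, 0.00347), the last 3 being genes of high endothelial venules. Glycam1 was widely spread, at 1866, 2663 and 6468 in VECs and 512, 165 and 111 in LECs. Its log2 difference of -3.92 became -4.55 without LEC 6 (adjusted p from 0.000531 to 0.0329 over the alternatives), and its other probe, above background on 1 LEC array, was at least 31.1-fold lower. Fut7 was well above background on 2 of 3 LEC arrays and was thus tested through the VEC arrays alone. Cxcl13 was well above background on none of the arrays, and Chst4 was on 2 VEC arrays and 1 LEC array and was not tested.

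Pan-endothelial markers and markers of other cells differed between the sorts alongside these results. Their counts stand beside shares of 34.9% higher and 32.0% lower in LECs over all tested genes. Of 6 pan-endothelial markers 4 fell in LECs and none rose, Tek by 2.73-fold, Pecam1 by 2.68-fold, Cdh5 by 1.57-fold and Erg by 1.40-fold, while Tie1 and Egfl7 did not pass. Their sum was 200050 to 214429 in VECs and 172774 to 184808 in LECs. A sum over probes is led by the brightest of them. All 3 erythroid markers fell in LECs, with sums of 5497 to 13608 in VECs and 141 to 768 in LECs. Of the 3, Hbb-bt and Alas2 were tested through the VEC arrays alone, which fixed their direction. Of 10 myeloid markers 5 rose and 3 fell, with sums of 30551 to 32737 in VECs and 26717 to 28725 in LECs. Most of that sum came from the Itgam probe, at 28512 to 30756 in VECs and 24775 to 26654 in LECs, and it hides the other markers. The 5 that rose were Aif1 (7.20-fold), Adgre1, Lyz2, Fcgr3 and Tyrobp (2.97-fold). Of these, Adgre1, Lyz2 and Fcgr3 were not well above background on all VEC arrays and were tested through the LEC arrays alone. The 3 that fell were Cd68 (2.23-fold), Cd14 (1.94-fold) and Itgam (1.16-fold), each well above background on all arrays. Another Itgam probe was dim, at 31.4, 26.5 and 25.6 in VECs and 17.9, 22.5 and 25.6 in LECs. It was well above background on 2 of 3 LEC arrays and did not pass (limma adjusted p = 0.092). Of 6 smooth muscle and pericyte markers 3 fell, with sums of 9013 to 11762 in VECs and 6766 to 7907 in LECs. Of 6 epithelial markers 1 rose and 1 fell, Krt20 was well above background on none of the arrays, and the sums were 311 to 517 in VECs and 369 to 413 in LECs. Their part in the differences of the TNF superfamily was not tested.

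All 6 arrays shared 1 slide, with the VEC arrays and LEC 6 in its first row and LEC 7 and 8 in its second. With slide row as a block, which leaves the comparison of LEC 6 with the 3 VEC arrays, the calls of Tnf, Tnfsf10, Tnfrsf4 and Tnfrsf9 were lost. Their log2 differences were then -0.27, -0.27, 0.26 and -1.17, with adjusted p of 0.217, 0.0821, 0.178 and 0.197. The other called members passed in that setting too.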

How the data were processed

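Total RNA of 6 sorted samples, 3 of VECs and 3 of LECs, was labeled with Cy3 and hybridized to one-color Agilent arrays. Per the file headers, Agilent Feature Extraction 12.0.3.1 produced the deposited intensity values, which are background-subtracted but carry no scaling from array to array. A second deposited table holds log2 values. For at least 99.92% of probes they matched the log2 intensity less a single constant for the array (within 0.01), and this table served as an alternative input.

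Outlier spots were left out, repeated spots of a probe were averaged, and log2 intensities were taken relative to the 75th percentile of the array. Scaled intensities are these values put back on the linear scale at the mean 75th percentile, 385. Over the 6 arrays, 30930 to 35510 of 56605 probes were well above background, and no spot was saturated. The number of arrays limits the precision. Probes well above background on all 3 arrays of a group, 33776 in number, were tested with limma (version 3.58.1, R version 4.3.3, functions lmFit and eBayes, two-sided, Benjamini-Hochberg adjusted over all tested probes). On simulated data the fit recovered fewer of the planted changes than the mark first set for it, and that mark was then lowered, so the simulation vouches for no set rate of recovery. Tables were made in Python 3.11.15. Genes were named through RefSeq accessions, which named 32994 probes (58.3%), and the tested probe of highest mean stood for its gene. RefSeq coordinates of GRCm38.p6 were used for the promoter sequences and the order of genes.

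The members and all gene and marker lists were chosen with earlier results of these data known. All members were accounted for. Of the longer pathway lists up to 4 genes per direction with the largest called differences were named, and of lists of at most 8 genes all. The alternatives were normexp background correction with an offset of 50 (on median spot signals, since no column of mean signals was used here), other scalings and filters, a floor under dim signals, keeping outlier spots, a variance trend with intensity, the one-way test of the methods, the deposited log2 table, slide row as a block, each array left out, and averaging over all probes of a gene. The PCR, imaging and transplantation experiments were not analysed here. A marker gene of 1 list is not reported here and was left out of its counts and sums.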

Additional observations from a re-analysis of the deposited data

How the results depend on the processing

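Of the 23 called members, 18 kept their direction and their side of the threshold under each of the 18 or 19 alternatives that gave a value, and the exceptions were Tnf, Tnfsf10, Tnfrsf4, Tnfrsf9 and Tnfrsf25. Over these 23 members, 390 of 432 values kept the call, 41 lost it with the same direction, and 1 changed sign. Without scaling between arrays, Tnfsf10 stood at 0.023, Tnfsf12 at 0.059, Tnfrsf19 at 0.10 and Tnfrsf21 at 0.18 (log2 difference, LEC minus VEC), each opposite in sign to the scaled value and none past the threshold, after a shift of 0.23 in the median of all probes. Averaged over the probes of a gene, Tnfrsf19 stood at 0.45 and passed. Leaving out 1 array at a time moved Tnfrsf21 between -0.13 and 0.0099, the latter without VEC 3.

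The number of ligands past the threshold was 3 in place of 5 without scaling, with slide row as a block and with probes averaged by gene, and 3 to 5 with 1 array left out. Leaving out 1 array gave 16 to 18 receptors, 27 to 28 signaling genes, 13 to 14 TNF-inducible genes and 18886 to 21412 probes. The cause of the losses was not tested.

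No paired analysis was possible because the VEC and LEC samples share no replicate numbers. Probes near background are limited by it, as signals well above background began at 11.8 to 25.4 in scaled intensity. The differences of Tnfrsf9, Tnfrsf18 and Tnfrsf11b rest on LEC signals below that limit and are given as bounds on group means. Those of Tnfsf15 and Tnfrsf22 rest in part on such signals.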
